A study of Mus musculus with 2 samples.

Results

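Zic genes encode transcription factors with C2H2 zinc fingers, related to the Gli factors that carry Hedgehog signals. The family is known for its part in patterning the neural tube and the cerebellum, and its transcripts are also known from the meninges and from neuroblasts bound for the olfactory bulb. Zic1, Zic2, Zic4 and Zic5 were followed here through single brain and lung cells sorted for GFP. These 4 genes, of 25814 named in the count tables, were chosen from earlier results of the same data in which Zic1 and Zic2 stood high in brain vessel cells. Their levels are therefore given as a description, without a test.

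The cells came from Nes-GFP mice, in which regulatory elements of Nestin drive GFP. Neural stem cells, their progeny and many cells of vessel walls fluoresce in this line, and the sort was meant to leave out cells without reporter signal. The labels give adult C57BL/6 mice of about 6 weeks for both tissues, with no other allele or treatment, while the study's methods name other wild-type stocks for breeding the line. Each tissue was 1 library (n = 1), with no replicate, so intervals below are 95% intervals that cover counting error only. The brain library held 4640 barcodes and 26221173 UMIs (unique molecular identifiers, each standing for 1 captured transcript), and the lung library 5981 barcodes and 36816962 UMIs. Filtering on genes and mitochondrial counts kept 4151 brain cells, with a median of 4209 UMIs, and 5608 lung cells, with a median of 5585. The libraries shared 11 barcodes among the kept cells.

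Cells were placed in classes by lists of marker genes that hold no Zic gene. A cell joined the class of which it showed at least 50% of the markers, with a lead of 10 percentage points over the next class. The classes are named after the cells their markers resemble and are marker-defined, not proven identities. In brain they were endothelial-like (302 cells), mural-like (155), fibroblast-like (56), quiescent stem cell or astrocyte-like (712), cycling progenitor-like (120), neuroblast-like (1935), oligodendrocyte progenitor-like (224), oligodendrocyte-like (52), ependymal-like (102) and microglia-like (39). A further 454 brain cells, with a median of 1498 UMIs, stayed without a class. In lung, 580 endothelial-like, 2392 mural-like and 704 fibroblast-like cells stood beside them. The suffix is dropped from here on. Every one of the 12 endothelial, 11 mural and 11 fibroblast markers was counted in its own class in both tissues. Brain mural cells carried Vtn, a pericyte gene, at 23240 CPM (the class's summed UMIs of a gene per 1e6 of its UMIs) and Acta2, the smooth muscle actin, at 33.0 CPM, against 198 and 981 CPM in lung mural cells. Brain fibroblasts carried Slc6a13, a transporter gene of meningeal fibroblasts, at 2144 CPM and the collagen gene Col1a1 at 2166 CPM, against 179 and 0 CPM in brain mural cells. They also carried Vtn at 6775 CPM and the pericyte receptor Pdgfrb at 420 CPM, and Col1a1 stood at 27078 CPM in lung fibroblasts. All 8 markers of the arachnoid barrier or meningeal border were counted in brain fibroblasts. Their sum was 111200 CPM, against 17267 CPM for the fibroblast markers, and 75.4 CPM in lung fibroblasts. Such a sum can rest on few genes, since oligodendrocytes reached 17938 CPM on the same list with 6 of its 8 markers at 0. With all 8 counted, fibroblasts and border cells were not told apart in this class, whose name rests on its rule.

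The members form 2 neighbouring pairs in the mouse genome (GENCODE annotation, GRCm38, the same assembly as mm10). Zic1 (ENSMUSG00000032368) lies on the minus strand at chr9:91358058-91365810 and Zic4 (ENSMUSG00000036972) on the plus strand at chr9:91362413-91389348. Their spans overlap by 3398 bases, of which 60 are exonic in both genes, and reads in the overlap cannot be told apart because the strand setting of the counting was not given in the sources used here. The annotated 3′ ends of both genes, which a 3′ tag library reads, lie outside that overlap. Zic5 (ENSMUSG00000041703) lies on the minus strand at chr14:122456795-122465677 and Zic2 (ENSMUSG00000061524) on the plus strand at chr14:122475435-122479852, with 9757 bases between them. All are protein-coding.

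The 250 bases before the RefSeq start sites (GRCm38.p6) are shown for the members held in the promoter table used, since the levels of the paired genes varied together over the classes. Zic2 was not in that table. Zic1 (minus strand, chr9:91365769-91366018), Zic4 (plus strand, chr9:91368722-91368971) and Zic5 (minus strand, chr14:122465659-122465908) read as follows, 5′ to 3′. Capitals mark CCAAT and GGGCGG on either strand.
Zic1: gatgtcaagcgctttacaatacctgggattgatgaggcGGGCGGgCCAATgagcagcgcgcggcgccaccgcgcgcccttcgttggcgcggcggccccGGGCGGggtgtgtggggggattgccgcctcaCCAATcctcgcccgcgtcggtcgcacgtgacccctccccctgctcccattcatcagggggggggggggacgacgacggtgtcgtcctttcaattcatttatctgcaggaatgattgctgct
Zic4: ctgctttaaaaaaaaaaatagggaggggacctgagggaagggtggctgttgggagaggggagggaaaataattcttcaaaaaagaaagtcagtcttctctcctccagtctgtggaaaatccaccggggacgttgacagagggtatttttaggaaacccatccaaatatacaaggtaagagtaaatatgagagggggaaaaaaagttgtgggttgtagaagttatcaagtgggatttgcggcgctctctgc
Zic5: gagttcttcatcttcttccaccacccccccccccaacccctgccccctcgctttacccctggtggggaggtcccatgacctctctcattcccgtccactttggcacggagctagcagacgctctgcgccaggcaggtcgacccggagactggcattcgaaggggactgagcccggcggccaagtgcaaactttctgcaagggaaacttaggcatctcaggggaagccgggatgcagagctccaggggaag
The Zic1 window held 2 CCAAT and 2 GGGCGG matches, while the Zic4 and Zic5 windows held neither. Of 32851 mouse windows of that length, 33.8% held CCAAT and 32.7% held GGGCGG on either strand. No Zic window held TATAAA, found in 12.4% of all windows, or CAGCAG, letters that occur in Zic binding motifs, found in 25.4%. The GC content was 66.0% for Zic1, 44.4% for Zic4 and 62.4% for Zic5, beside a median of 52.4%. The ratio of observed to predicted CpG was 0.995 for Zic1, above 94.0% of all windows, and 0.376 for Zic4, near the median of 0.373. The Zic4 window lies inside the GENCODE span of Zic4, before an internal start, and not at the outer start of the gene, which overlaps Zic1.

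In brain the members fell into distinct combinations by class. Pericyte-rich mural cells and fibroblasts carried all 4, with Zic1 the highest. Endothelial cells carried Zic2 and Zic5 almost without Zic1 and Zic4. Ependymal cells leaned towards Zic1 and Zic4, neuroblasts and astroglia carried all members at lower levels, and the oligodendrocyte lineage carried next to none. Levels are CPM of the summed UMIs of a class. Because a UMI marks a captured 3′ end, different genes are compared on this scale with no length term.

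Zic1, a neural plate and cerebellar granule cell factor, stood at 777 CPM (695 to 865, 329 UMIs) in mural cells and 719.9 CPM (631 to 817, 238 UMIs) in fibroblasts. These intervals overlap. Ependymal cells followed at 119 CPM (94.9 to 148), then neuroblasts at 69.3 CPM (64.1 to 74.7), and each of these was clear of its neighbours in the order. The quiescent stem cell or astrocyte class held 52.8 CPM (44.8 to 61.7) and cycling progenitors 46.4 CPM (34.2 to 61.6), which were not apart. Endothelial cells held 5 Zic1 UMIs in 302 cells, or 4.26 CPM (1.38 to 9.94). Oligodendrocyte progenitors held 4 UMIs (2.92 CPM) and oligodendrocytes 2 UMIs (4.25 CPM), and the intervals of these last classes overlap.

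Zic4, the neighbour of Zic1 and a partner in cerebellar development, followed a similar order, at a lower level in most classes. Fibroblasts held 321 CPM (262 to 388) and mural cells 227 CPM (184 to 277), with overlapping intervals. Ependymal cells held 135 CPM (109 to 165), beside 119 CPM of Zic1, with overlapping intervals. In the quiescent stem cell or astrocyte class Zic4 was 31.3 CPM (25.2 to 38.4), in neuroblasts 11.2 CPM (9.19 to 13.5) and in cycling progenitors 7.74 CPM (3.34 to 15.3). Endothelial cells held 2 Zic4 UMIs (1.70 CPM), oligodendrocyte progenitors 2 (1.46 CPM) and oligodendrocytes none of 471001 UMIs, which allows up to 6.37 CPM.

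Zic2, known for its part in forebrain midline formation, was the highest member in brain endothelium, though its highest class was fibroblasts. Fibroblasts held 463 CPM (392 to 542, 153 UMIs), endothelial cells 266 CPM (237 to 297, 312 UMIs) and mural cells 196 CPM (156 to 243, 83 UMIs). The fibroblast interval was clear of the endothelial interval, while the endothelial and mural intervals overlap. The quiescent stem cell or astrocyte class at 47.0 CPM, neuroblasts at 41.4 CPM and ependymal cells at 40.2 CPM had overlapping intervals. Cycling progenitors held 19.4 CPM, oligodendrocyte progenitors 1 UMI and oligodendrocytes 0.

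Zic5, the neighbour of Zic2 and a factor of neural crest development, was the lowest member in mural cells and fibroblasts. It stood at 121 CPM (86.4 to 165) in fibroblasts, 52.8 CPM (40.5 to 67.7) in endothelial and 49.6 CPM (30.7 to 75.8) in mural cells. Ependymal cells at 37.3 CPM and the quiescent stem cell or astrocyte class at 33.7 CPM overlapped the mural interval. Neuroblasts held 16.0 CPM and cycling progenitors 11.6 CPM. The 224 oligodendrocyte progenitors held 1 UMI and the 52 oligodendrocytes 0.

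**Figure D1:**
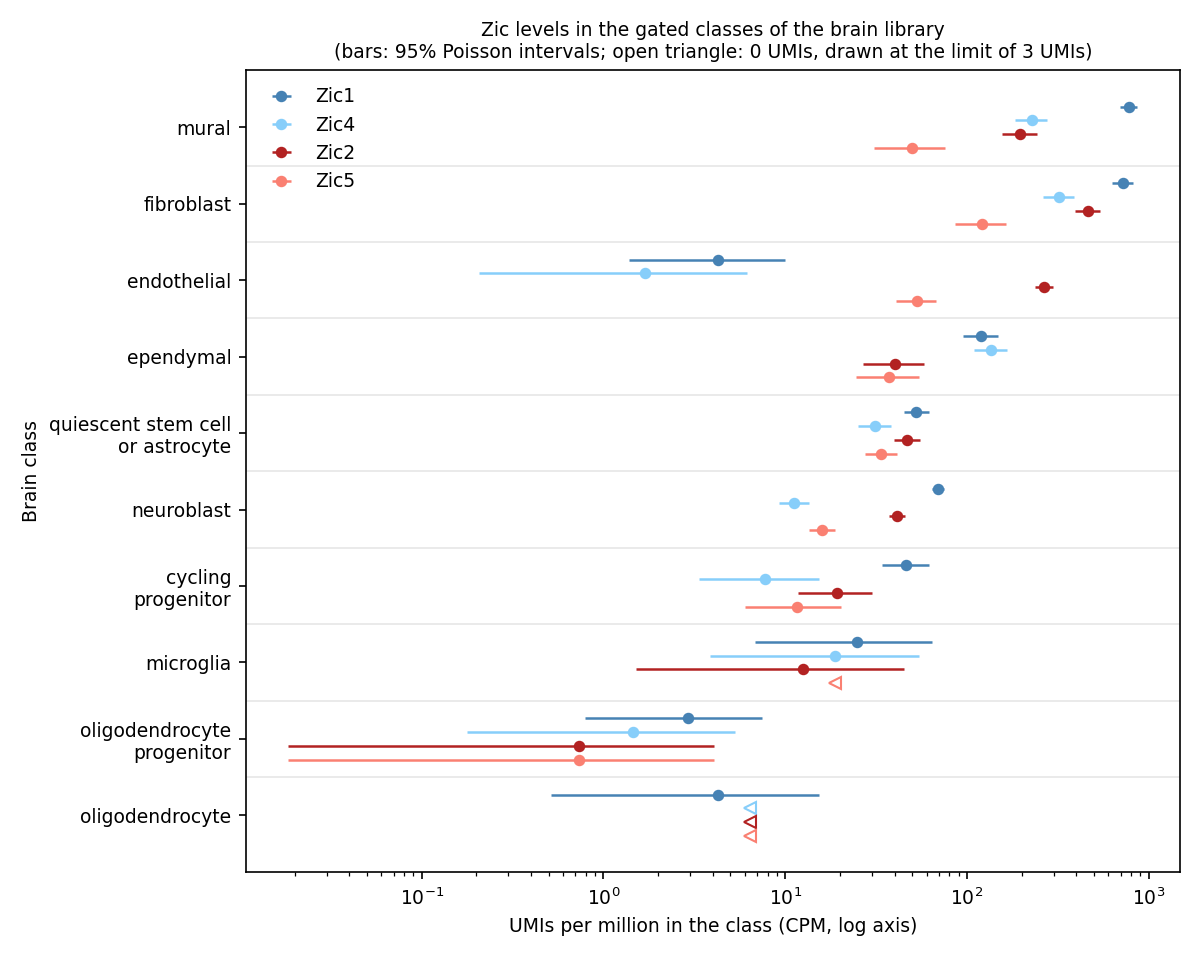
Levels of Zic1, Zic4, Zic2 and Zic5 in each brain class, in CPM on a log axis. Points are class totals of 1 library, bars are 95% Poisson intervals, and open triangles mark 0 UMIs at the limit of 3 UMIs. Zic1 stands at 777 CPM in mural and 4.26 CPM in endothelial cells, while Zic2 stands at 196 and 266 CPM.

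The oligodendrocyte lineage and microglia served as the background for stray RNA in the brain library. In 39 microglia, 4 Zic1 and 3 Zic4 UMIs came from 1 and the same cell, and no microglial Zic5 UMI was counted. The class levels were thus 24.96 CPM for Zic1 and 18.7 CPM for Zic4, with 2 further UMIs for Zic2. Microglia also carried Slc6a13 at 112 CPM, and the part of mixed cells in these Zic counts was not tested. Markers of other classes were counted in brain vessel cells too. The summed endothelial markers stood at 1501 CPM in mural cells and 678 CPM in fibroblasts, against 23780 CPM in endothelial cells, and the mural markers at 522 CPM in endothelial cells. The summed astrocyte markers stood at 202 CPM in endothelial cells, 276 CPM in mural cells and 1536 CPM in fibroblasts, and at 23865 CPM in the astrocyte class. The neuroblast sums were 157, 458 and 166 CPM, and the oligodendrocyte sums 373, 503 and 339 CPM, in the same order of vessel classes. Their part in the vessel Zic levels was not tested. When every vessel cell with any astrocyte, neuroblast or oligodendrocyte marker UMI was left out, 51 endothelial cells, 19 mural cells and 1 fibroblast remained. The endothelial levels were then 396 CPM for Zic2, 103 CPM for Zic5 and 0 for Zic4, the mural levels 882 CPM for Zic1, 339 CPM for Zic4 and 136 CPM for Zic2, and no fibroblast value could be given. The remaining endothelial cells held 164290 UMIs of all genes and the mural cells 44228, against 1174248 and 423620 in the full classes. These levels are given without intervals and are less certain than those of the full classes.

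Counted per cell, Zic1 had a UMI in 80.0% of mural cells (124 of 155) and 87.5% of fibroblasts (49 of 56), against 1.66% of endothelial cells (5 of 302). Zic2 had a UMI in 57.9% of endothelial cells, 39.4% of mural cells and 80.4% of fibroblasts. As the background, 0.893% of oligodendrocyte progenitors had a Zic1 UMI and 0.446% a Zic2 UMI, at a median of 6322 UMIs against 3817 in endothelial cells. The smaller background classes were higher for Zic1, at 1.92% of oligodendrocytes (1 of 52) and 2.56% of microglia (1 of 39). For Zic2 they stood at 0 and 5.13% (2 of 39). After thinning each cell to 1000 UMIs, which left out 2 endothelial and no mural cells or fibroblasts, Zic1 was seen in 55.5% of mural cells (47.3 to 63.5) and 48.2% of fibroblasts (34.7 to 62.0). At that depth Zic2 was seen in 21.7% of endothelial cells (17.1 to 26.8), 20% of mural cells (14.0 to 27.2) and 48.2% of fibroblasts (34.7 to 62.0). Zic1 was then seen in 0 of 300 endothelial cells, with an upper interval bound of 1.22% that concerns cells with a UMI at this depth and not cells expressing the gene.

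**Figure D2:**
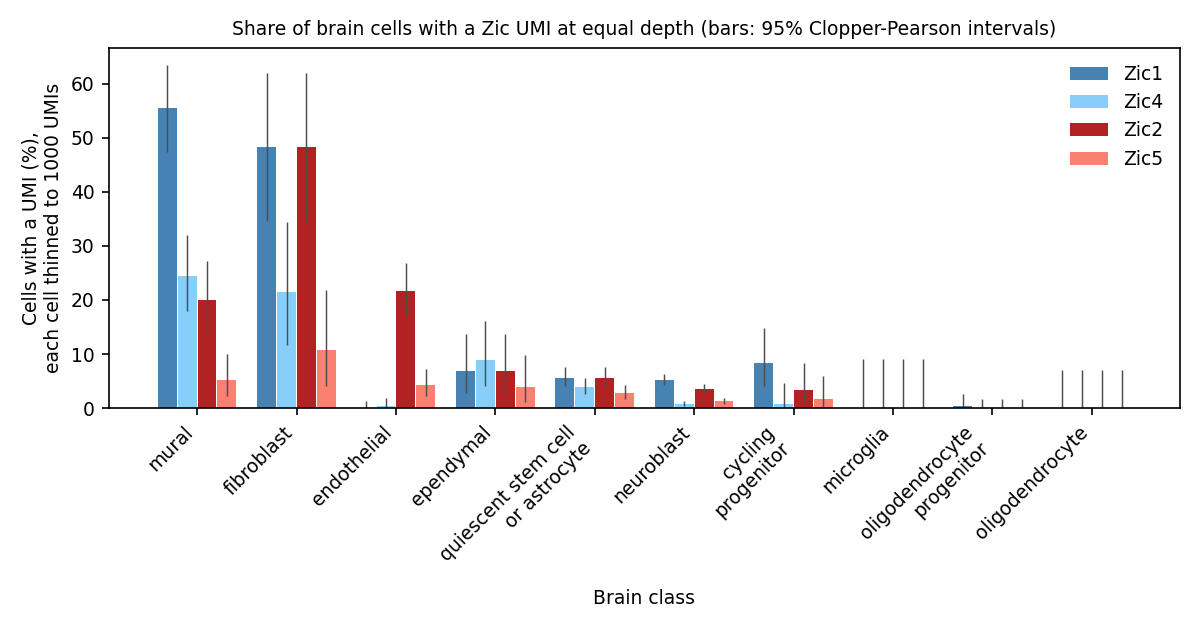
Percent of cells with a UMI of each Zic gene in the brain classes after each cell was thinned to 1000 UMIs. Bars are shares of the cells of 1 library with 95% Clopper-Pearson intervals. Mural cells and fibroblasts lead for Zic1 at 55.5% and 48.2%, and endothelial cells show Zic2 in 21.7%.

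Most mural cells and fibroblasts held Zic1 and most endothelial cells held Zic2. The other members were at 0 in most endothelial and most mural cells, as Zic5 was in 252 of 302 and 135 of 155. Fibroblasts differed, with Zic2 at 0 in only 11, Zic4 in 18 and Zic5 in 29 of 56 cells. The median mural cell held 2 Zic1 UMIs and the highest 10, and the median fibroblast held 4 and the highest 16. In endothelium, 98 cells held 1 Zic2 UMI, 44 held 2 and 33 held 3 or more. At least 1 UMI of any member was seen in 63.6% of endothelial cells, 92.3% of mural cells and 96.4% of fibroblasts, and 16 of the 56 fibroblasts held all members at once.

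Neuroblasts showed another spread. Only 256 of 1935 neuroblasts (13.2%) held a Zic1 UMI, and the 88 cells with 3 or more held 66.0% of the class's Zic1 UMIs, up to 17 in a cell. Zic2 was flatter, with 25.8% of its neuroblast UMIs in cells with 3 or more. Because neuroblasts were so many, they still supplied 40.5% of all Zic1 UMIs of the kept brain cells and 32.8% of those of Zic2, while mural cells supplied 19.95% and 6.82%.

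Zic genes were counted in the same neuroblasts more often than the product of their shares gives, within and across the loci. A UMI of both Zic1 and Zic4 was seen in 56 neuroblasts against a product of 9.26, and 80.0% of neuroblasts with Zic4 also held Zic1. Zic2 and Zic5 were together in 71 neuroblasts against 16.9. Across the loci the ratio of the count to the product ran from 2.48 for Zic1 and Zic2 (90 neuroblasts against 36.3) to 5.58 for Zic4 and Zic5 (24 against 4.30), beside 6.05 and 4.21 for the neighbouring pairs. In the quiescent stem cell or astrocyte class, Zic1 and Zic4 were together in 32 cells against 9.32, a ratio of 3.43, and Zic2 and Zic5 in 19 against 12.3, a ratio of 1.54, beside 1.31 to 1.62 across the loci. In ependymal cells the Zic1 and Zic4 count was 30 against 14.5, a ratio of 2.07 beside 1.78 to 2.07 across the loci. In mural cells the Zic1 and Zic4 count was 53 against 52.0 and in fibroblasts 33 against 33.3, but with Zic1 in 80.0% and 87.5% of these cells the ratio had little room to rise. Zic2 and Zic5 were together in 11 mural cells against 7.87, in 23 fibroblasts against 21.7 and in 36 endothelial cells against 29.0. Cells of a class differ in depth, and the part of depth in these excesses was not tested.

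The neural classes were then divided by genes with known meaning. The choice of Calb2, Foxp2 and Otx2 and the marker counts used were made after Zic values had been seen. Calb2 encodes calretinin, a marker of granule and periglomerular interneurons of the olfactory bulb. Neuroblasts with a Calb2 UMI (138 cells) held Zic1 at 195 CPM and the other 1797 at 57.3 CPM, a ratio of 3.40 (2.83 to 4.06). Zic4 moved likewise, at 26.1 and 9.77 CPM, a ratio of 2.67 (1.59 to 4.31). Zic2 was 40.4 and 41.5 CPM, a ratio of 0.973 (0.663 to 1.38), and Zic5 had a ratio of 1.04 (0.557 to 1.81). At 1000 UMIs a cell, Zic1 was seen in 19.6% of neuroblasts with Calb2 (13.3 to 27.2) and in 4.01% of those without (3.15 to 5.03).

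Foxp2, a factor of striatal and other projection neurons and of some bulb interneurons, marked neuroblasts with less of all members. The 482 neuroblasts with a Foxp2 UMI held Zic1 at 23.2 CPM against 83.7 CPM in the other 1453, a ratio of 0.277 (0.205 to 0.367). The Zic2 ratio was 0.471 (0.344 to 0.633), and those of Zic4 and Zic5 were 0.257 and 0.321. Neuroblasts with at least 50% of the cycling markers (239 cells) differed from the rest in Zic5, at 23.4 against 14.0 CPM, a ratio of 1.68 (1.17 to 2.38), while the Zic1 ratio was 1.04 (0.856 to 1.25).

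Astroglial cells with Gfap or Thbs4, genes of fibrous and germinal-zone astrocytes, and no Slc7a10, a transporter of parenchymal astrocytes, numbered 151. They held Zic2 at 70.5 CPM against 36.3 CPM in the 296 cells with the reverse pattern, a ratio of 1.94 (1.25 to 3.02). Zic4 was 48.2 and 27.8 CPM, a ratio of 1.73 (1.02 to 2.92), and Zic5 43.0 and 27.8 CPM, a ratio of 1.55 (0.890 to 2.65). Zic1 was 55.0 and 51.7 CPM, a ratio of 1.06 (0.675 to 1.64). The 25 astroglial cells with a UMI of Otx2, a factor of choroid plexus and dorsal midbrain, held Zic1 at 183 CPM against 46.9 CPM in the others, on 23 and 132 UMIs.

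Within the vessel classes most of these ratios had intervals that include 1. Endothelial cells with at least 2 arterial markers (55 cells) held Zic2 at 138 CPM against 296 CPM in the other 247, a ratio of 0.468 (0.312 to 0.680), while Zic5 had a ratio of 1.02 (0.494 to 1.94). Endothelial cells with at least 2 venous markers (122 cells) held Zic2 at a ratio of 1.1 (0.877 to 1.38) and Zic5 at a ratio of 0.532 (0.296 to 0.926) to the others. Fibroblasts with 4 or more meningeal border markers (38 cells) held Zic2 at 573 CPM against 233 CPM in the other 18, a ratio of 2.46 (1.59 to 3.94). For Zic1 that ratio was 1.15 (0.866 to 1.54). Mural cells with every brain pericyte marker held Zic1 at 829 CPM against 637 CPM in the rest, a ratio of 1.30 (1.002 to 1.71).

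**Figure D3:**
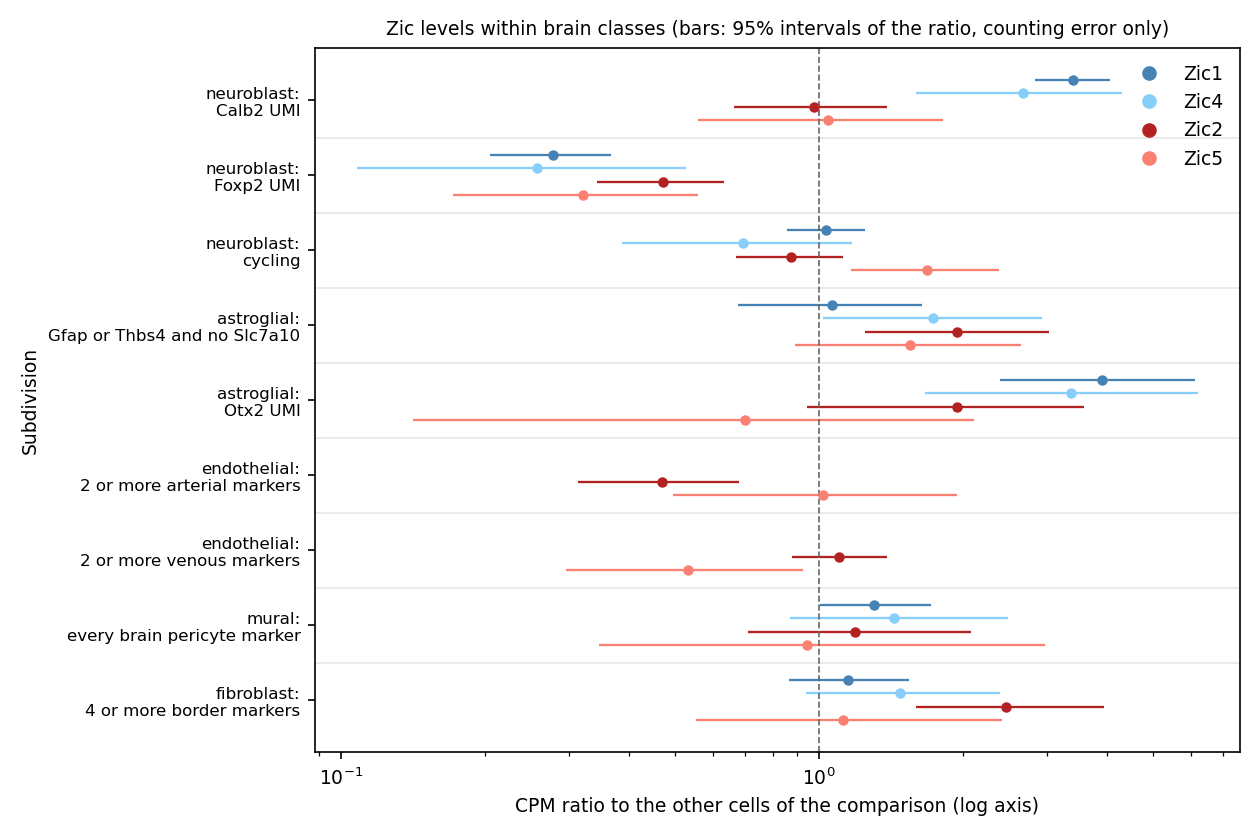
Ratio of each Zic level in a subdivision of a brain class to that in the cells it was compared with, on a log axis. Points are ratios of CPM, bars are 95% intervals for counting error only, the dashed line is a ratio of 1, and ratios with under 3 UMIs on either side are not drawn. Zic1 and Zic4 lie right of the line in neuroblasts with Calb2 (3.40 and 2.67), and Zic2 lies left of it in arterial endothelium (0.468).

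Setting brain beside lung asked whether vessel classes placed by the same markers carry these genes in another organ. The like-named classes were not alike, as their levels of Vtn, Col1a1 and the border markers show, so a fold between them compares cells that differ in more than tissue. Of the members, the lung table named only Zic5, with 4 UMIs in 4 cells. Of these, 2 were in fibroblasts, 1 in a myofibroblast and 1 in a cell without a class. Zic1, Zic2 and Zic4 were at 0 in all 5608 lung cells, and over 31797069 UMIs a count of 0 allows up to 0.0943 CPM. In lung endothelial, mural and fibroblast cells the limit for a gene at 0 was 0.899, 0.246 and 0.500 CPM. These libraries differ in tissue and in everything else that separates 1 library from another, and the parts cannot be told apart.

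In endothelial cells Zic2 was at least 296-fold and Zic5 at least 58.7-fold higher in brain than in lung, where both were at 0. These bounds set the brain level itself, without its interval, over a lung limit of 3 UMIs. Zic1 had 5 UMIs in brain endothelial cells and 0 in lung. No fold is given for it, since its brain level of 4.26 CPM (1.38 to 9.94) overlapped the 2.92 CPM (0.795 to 7.47) of oligodendrocyte progenitors, used as the background. It rested on few cells, with 12 UMIs in 305 cells once cells of any gene number were let in, against 5 in 302. Zic4 was under the limit on both sides. In mural cells the bounds were 3151-fold for Zic1, 919.5-fold for Zic4, 795-fold for Zic2 and 201-fold for Zic5. In fibroblasts they were 1439-fold for Zic1, 641-fold for Zic4 and 925-fold for Zic2. Zic5 was the only member with lung fibroblast UMIs, at 121 CPM in brain and 0.333 CPM in lung, a ratio of 363 (94.1 to 3099).

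Past 10-fold higher in brain stood 2 members in endothelial cells, where 1.98% of 10388 genes with at least 20 UMIs over both tissues did so. In mural cells all 4 did, beside 1.95% of 12133 genes, and in fibroblasts all 4, beside 1.72% of 11137 genes. Because the members were chosen for this contrast, nothing is read from these counts.

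**Figure D4:**
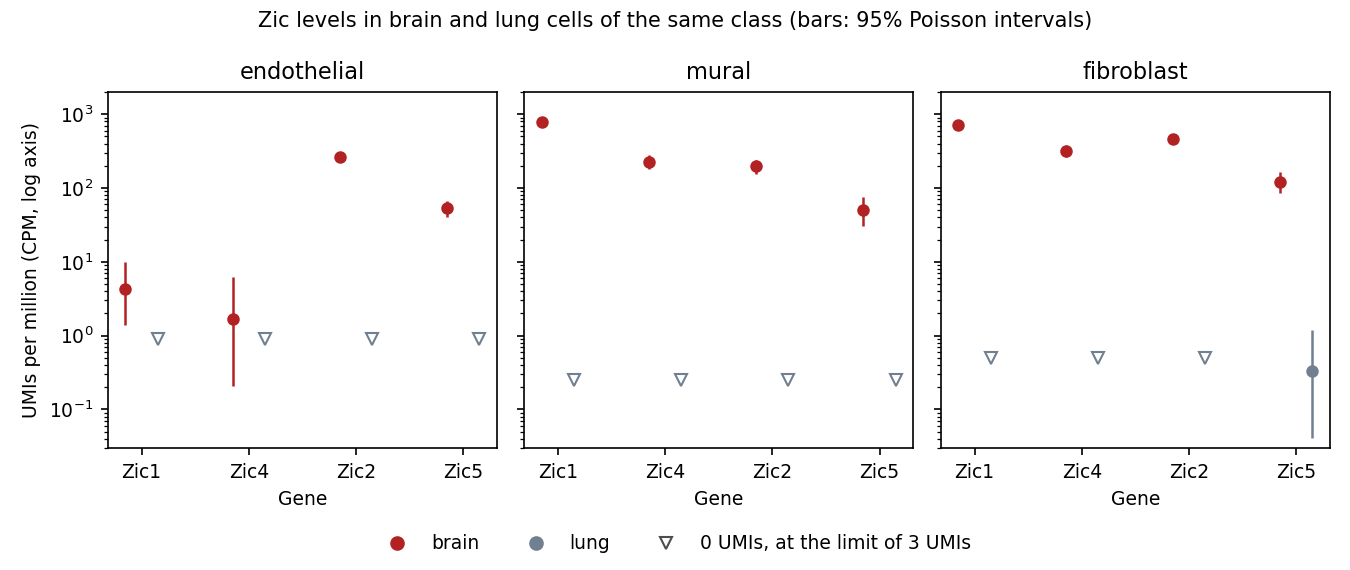
Zic levels in endothelial, mural and fibroblast cells of brain and lung, in CPM on a log axis. Points are class totals of 1 library per tissue with 95% Poisson intervals, and open triangles mark 0 UMIs at the limit of 3 UMIs. The only lung point above 0 is Zic5 in fibroblasts at 0.333 CPM, from 2 UMIs.

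The related Gli and Glis factors did not pass 10-fold in any vessel class in which they reached 20 UMIs. Gli3, a Hedgehog effector, stood at 14.2 CPM in brain and 15.03 CPM in lung mural cells.

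Other transcription factors of brain vessels and meninges were listed for comparison. In endothelial cells 4 of the 9 with enough counts, of 15 listed, were past 10-fold higher in brain. These were Foxq1 and Lef1, of which Lef1 is a Wnt effector, at 662 and 436 CPM in brain, with Foxf2 at 159 and Foxc1 at 299 CPM. In mural cells 4 of 11 passed, with Foxd1, a stromal forkhead factor, at 633 CPM in brain and 0 in lung, Foxc1 at 330.5 CPM, Tbx18, a pericyte and mesothelial factor, at 125 CPM, and Foxq1 at 33.0 CPM. In fibroblasts 6 of 11 passed, again with Foxd1 (496 CPM), Tbx18 (433 CPM), Foxc1 and Foxq1, and with Lef1 and Msx1. None of this list was past 10-fold higher in lung. Of all genes with enough counts, 1.98% in endothelial, 1.95% in mural and 1.72% in fibroblast cells were past 10-fold higher in brain. This list and the lung list below were chosen with earlier results of these data known, so nothing is read from their counts. In brain mural cells Ebf1 stood at 1176 CPM, above Zic1 at 777 CPM, and Foxd1 and Foxc1 stood below Zic1. Ebf1 was higher in lung mural cells (1816 CPM) and lung fibroblasts (504 against 51.4 CPM), but higher in brain endothelium (391 against 151 CPM). Others also stood higher in lung in a class, among them Lef1 (97.3 against 47.2 CPM) and Foxf2 (215 against 113 CPM) in mural cells. Prrx1 did so in fibroblasts (342 against 57.5 CPM), though not in mural cells (58.3 against 104 CPM).

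Some listed lung positional factors were past 10-fold higher in lung, and none was so in brain. Of 10 listed, 3 of 8 with enough counts in endothelial cells, 5 of 10 in mural cells and 2 of 10 in fibroblasts passed in that direction, beside 2.09%, 1.15% and 0.799% of all genes. The others measured passed in neither. Of these, 2 of 5 in endothelial cells, 3 of 5 in mural cells and 5 of 8 in fibroblasts were at 0 in brain, where the limit of 3 UMIs (9.07 CPM in fibroblasts) kept their bound under 10-fold. Tbx3 was counted on both sides, at 248 CPM in brain and 108 CPM in lung mural cells. In lung mural cells Foxf1, a factor of lung mesenchyme, stood at 423 CPM, Tbx5 at 355 CPM and Tbx4 at 253 CPM, each at 0 in brain mural cells. Hoxa5 stood at 356 CPM in lung endothelium and 0 in brain endothelium. Of 3 genes reported elsewhere as bound or regulated by Zic factors, Atoh1 was not in either table. Apoe, the lipid carrier of astrocytes, was 12.9-fold (11.2 to 14.96) higher in brain than in lung endothelium, at 890 and 68.9 CPM, and stood at 25707 CPM in the astrocyte class of the same brain library. The other vessel classes stayed under 10-fold, with Apoe at 212 CPM in brain and 78.7 CPM in lung mural cells, and 5.12-fold (4.96 to 5.29) higher in brain fibroblasts, at 14421 and 2816 CPM. The part of stray astrocyte RNA in these values was not tested. Ephb1, a receptor tyrosine kinase, was at 0 in brain endothelium, at 13.2 CPM in lung endothelium and at 180.5 CPM in brain oligodendrocytes, a class with next to no Zic counts.

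The members themselves were most alike within their genomic pairs. Over the 17 classes of both libraries with at least 20 cells, Pearson's r of log2(CPM + 10) was 0.958 between Zic1 and Zic4 and 0.966 between Zic2 and Zic5. Across the loci it lay between 0.774 and 0.829. Over the 10 brain classes the within-pair values were 0.942 and 0.942, and those across lay between 0.645 and 0.720. The points share libraries, and the 7 lung classes are almost all at 0, so the values describe these classes only.

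Among 13572 other genes with at least 100 UMIs, Pde1b, a cyclic nucleotide phosphodiesterase, was most like Zic1 (r = 0.934), followed by Gm14964, Fam131a, Slc30a10 and Hspa12a. Slc30a10, a manganese exporter, stood at 243 CPM in brain mural cells and 98.4 CPM in the astrocyte class. Dcdc2a led for Zic4 (r = 0.918), at 203 CPM in fibroblasts, 172 CPM in ependymal and 73.2 CPM in mural cells, followed by Fam131a, Slc6a17, Hspa12a and 9330136K24Rik. Slc22a8, an organic anion transporter of brain barriers, led for Zic2 (r = 0.878), at 624 CPM in endothelial cells, 439 CPM in mural cells and 420 CPM in fibroblasts, followed by Pcca, Ggact, Hlcs and Cbx7. Cbx7, a Polycomb subunit, led for Zic5 (r = 0.891), followed by 9030025P20Rik, Fam45a, Hlcs and AB041803. Several of these stood near 20 CPM or lower in their highest class, among them Pde1b.

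Of the 5 genes most like Zic2, 2 lie on its own chromosome, but neither was among the leading 5 with log2(CPM + 1), where Slc22a8 alone stayed. Pcca, a subunit of propionyl-CoA carboxylase, starts 54.5 kb beyond the Zic2 end (chr14:122534324-122891100, plus strand), and Ggact lies 336 kb beyond it (chr14:122816223-122913757, minus strand) and overlaps Pcca, so that without strand their shared reads cannot be told apart. Pcca stood at 227 CPM (178 to 284) in brain fibroblasts, 90.3 CPM in endothelial and 85.0 CPM in mural cells, against 9.67, 23.1 and 4.93 CPM in the lung classes. In oligodendrocyte progenitors Pcca stood at 29.2 CPM and Zic2 at 0.729 CPM, from 1 UMI. Between Zic5 and Zic2 lies the non-coding 2610035F20Rik (chr14:122470284-122475199, minus strand). It was counted in brain only, with 8 UMIs in fibroblasts (24.2 CPM), 19 in the quiescent stem cell or astrocyte class (6.47 CPM) and 2 in endothelial cells (1.70 CPM), and with 0 in the gated lung classes.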

How the data were processed

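The authors deposited 1 table of UMI counts per tissue, made per the labels with bcl2fastq 2.19.1.403, UMI-tools 1.0.0, STAR 2.7.1a on mm10 and featureCounts 1.6.4. The strand setting was not given in the sources used here. The tables hold 4640 brain and 5981 lung barcodes, and the study's stated filter (over 200 and under 4000 genes, under 40% mitochondrial counts) left 4151 and 5608 cells. Members, marker lists and comparison genes were chosen with earlier results of these data known, and the gate was set after marker values were seen. Zic symbols were counted as given, and older symbols of markers were matched through RefSeq synonyms. The genes named were the members in every class, the listed relatives and factors (1 of them is not reported here), and the 5 genes with the highest r to each member. UMIs were summed per class and scaled to CPM in Python 3.11 (numpy, scipy). Intervals were exact Poisson for levels, Clopper-Pearson for shares and conditional binomial for ratios. Against a class at 0 UMIs a fold was taken from 3 UMIs over that class. Doublets were not removed in the values given. Procedures were tested on simulated data. With 1 library per tissue no p-value was computed.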

Additional observations from a re-analysis of the deposited data

How the results depend on the processing

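No paired analysis was possible because each tissue was 1 library, and no replicate could be left out. Vessel levels stayed within their counting intervals under a stricter gate, Louvain clusters, removal of Scrublet calls (44 brain and 72 lung cells) and under 10% mitochondrial counts, as did the brain over lung bounds where run. With no upper limit of genes, the endothelial bounds rose to 385-fold for Zic2 and 78.6-fold for Zic5. The endothelial Zic1 level over the lung limit, too near the background to be read as a fold, went from 4.74 (5 UMIs, 302 cells) to 14.1 (12 UMIs, 305 cells), past the 10-fold mark. The mean of single-cell CPM gave 409 CPM for Zic4 in fibroblasts. Without vessel cells holding neural marker UMIs, endothelial Zic4, Zic2 and Zic5 were 0, 396 and 103 CPM, and mural Zic1, Zic4 and Zic2 were 882, 339 and 136 CPM. These levels rest on 51 endothelial and 19 mural cells and are given without intervals. The causes were not tested, and 1 fibroblast was left, too few for a value. Thinned to 2000 UMIs, shares were by construction higher: 1.23%, 41.6% and 8.23% of endothelial cells for Zic1, Zic2 and Zic5, 71.8% and 29.0% of mural cells for Zic1 and Zic2, and 69.8% and 41.5% of fibroblasts for Zic1 and Zic4. With log2(CPM + 1), 3 of the 5 genes most like Zic1, 1 for Zic4 and 1 for Zic2 stayed among the leading 5. Of 28 levels in the other brain classes, 3 moved down under the stricter gate, 1 with no upper limit of genes, and 2 moved up with single-cell means. In microglia, Zic1 and Zic4 were 0 under the stricter gate and Louvain clusters, which gave 24 such levels. Classes of few cells, fibroblasts (56) and microglia (39) among them, limit precision.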
